A study of Caenorhabditis elegans with 6 samples.

Results

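The genes described here are homeobox transcription factor genes of Caenorhabditis elegans, taken by symbol from the deposited tables. They comprise the genes found under a symbol of ceh- with a number, apart from ceh-20, ceh-22, ceh-34 and ceh-43. A fixed set of homeobox genes with other names was added, such as lin-11, unc-30, alr-1, zfh-2 and the Hox genes. Together these came to 84 of the 47063 genes in the tables, and all 84 are annotated as protein-coding. A ceh- gene whose symbol was not held is missing from them. RNA was measured by RNA-seq in 3 libraries labelled dopamine neurons and 3 labelled serotonin neurons. All 6 libraries carry the strain label FQ939, a wild-type genotype label and embryos and larvae as source material, and the labels give no age beyond that and no treatment. The sources used here do not say how the cells were marked or sorted. The labels name no separate cultures behind the replicates, so p-values reflect how far these libraries vary, and that variation may be technical.

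A homeobox encodes the homeodomain, a small DNA-binding domain by which the protein recognises short AT-rich sites in its target genes. In C. elegans nearly every neuron class carries its own combination of homeodomain proteins, and many of them act as terminal selectors, factors that switch on and hold the genes that give a neuron its transmitter, receptors and shape. The dopamine neurons are ciliated and sense touch, whereas serotonin is made in pharyngeal NSM neurons, chemosensory ADF neurons and the egg-laying HSN neurons.

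Reads assigned to genes ranged from 20418663 to 31559049 per library, of which 24776 to 68187 fell on the homeobox genes. The identity markers followed the labels, with all 6 dopamine markers higher in dopamine and both serotonin markers higher in serotonin libraries. Genes annotated as ribosomal RNA took 43.9% and 44.99% of the reads in dopamine 1 and serotonin 3, against 13.7% to 21.5% in the other 4 libraries. Pharyngeal muscle markers stood apart as well, since all 4 of 4 (myo-1, myo-2, tnc-2 and tni-4) were higher in serotonin libraries. Their summed level was 30207.6 to 55426.9 normalized counts there and 312.5 to 596.8 in dopamine libraries, and none was at 0, the lowest value being 12.5. Body muscle markers summed to 28885.4 to 49224.2 in dopamine and 17127.1 to 26075.2 in serotonin libraries. Most of that sum was unc-54, which was higher in dopamine libraries, at 32487 ± 12180 normalized counts against 14123 ± 3573. In contrast unc-15 was higher in serotonin libraries. The markers mup-2 and myo-3 did not pass, with log2 fold changes (dopamine minus serotonin) of -0.87 and -0.195, and the list's median was -0.53. The part of these muscle markers in the differences below was not tested. In such bulk samples fewer cells of a type and less RNA per cell cannot be told apart.

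Of the 84 homeobox genes, 74 reached 10 normalized counts in at least 3 libraries and were tested by limma on log2(normalized count + 1). A normalized count is a read count divided by the authors' size factor for that library, and fold changes are given on this log2 scale as dopamine minus serotonin. The genes zfh-2, alr-1 and ceh-48 were higher in dopamine neurons. Those higher in serotonin neurons were lin-11, ceh-27, ceh-57, unc-30, ceh-23, ceh-54, ceh-19 and ceh-79, and 63 genes did not pass. The genes that passed were 14.9% of those tested, where 9.52% of all tested genes passed in either direction. The 3 genes higher in dopamine neurons were 4.05% of those tested, where 3.16% of all 15750 tested genes passed in that direction. The 8 higher in serotonin neurons were 10.8%, where 6.36% of all tested genes passed. These include ceh-23, ceh-54, ceh-19 and ceh-79, which met the filter only with their serotonin libraries. The median log2 fold change of the 74 genes was -0.10, beside -0.07 over all tested genes. With libraries scaled to pan-neuronal genes, of which 11 of 22 were higher in dopamine neurons and 18 with the replicate number as a block, the counts became 2 and 16, where 1.1% and 21% of all tested genes passed, and the median of all genes shifted from -0.07 to -0.96 and that of the homeobox genes to -1.0.

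The zinc finger homeobox gene zfh-2 (WBGene00022518, WBcel235 chromosome I, 803368 to 834765) encodes a large protein related to mammalian ZFHX factors. It stood at 12947, 12625 and 18037 normalized counts in dopamine 1, 2 and 3 and at 1346, 2585 and 2517 in serotonin 1, 2 and 3. Every dopamine library lay well above every serotonin library. The difference was 6.95-fold (log2 fold change 2.80 with SE 0.29 and limma adjusted p = 9.34e-05). Among the homeobox genes it had the highest length-scaled level in dopamine neurons, 118 ± 24.7 FPKM (SD, n = 3), and ranked 13 in serotonin neurons at 17.5 ± 5.67 FPKM.

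The gene alr-1 (WBGene00044330, WBcel235 chromosome X, 11121871 to 11125620) encodes a paired-like factor, which in the worm acts in touch receptor neurons, motor neurons and amphid glia. Its values were 1541, 1473 and 1986 normalized counts in dopamine and 183, 349.95 and 187 in serotonin libraries. The groups were separated by a wide gap. The level was 7.2-fold higher in dopamine neurons (log2 2.85 with SE 0.32, limma adjusted p = 1.68e-04).

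The Onecut gene ceh-48 (WBGene00015934, WBcel235 chromosome IV, 6812108 to 6815607) is one of a group of cut-domain homeobox genes that together drive genes shared by all neurons. It measured 2364, 1898 and 2487 normalized counts in dopamine libraries and 704, 760.4 and 854 in serotonin libraries. The groups did not overlap and the spread within each was small. The gene was 2.9-fold higher in dopamine neurons (log2 1.53 with SE 0.25, limma adjusted p = 0.00206). That call was lost under pan-neuronal scaling (log2 fold change 0.62, limma adjusted p = 0.0834, and 1.25e-07 to 0.0834 over the 18 alternatives). Scaled in that way zfh-2 and alr-1 still passed, at log2 fold changes of 1.88 and 1.94.

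**Figure D1:**
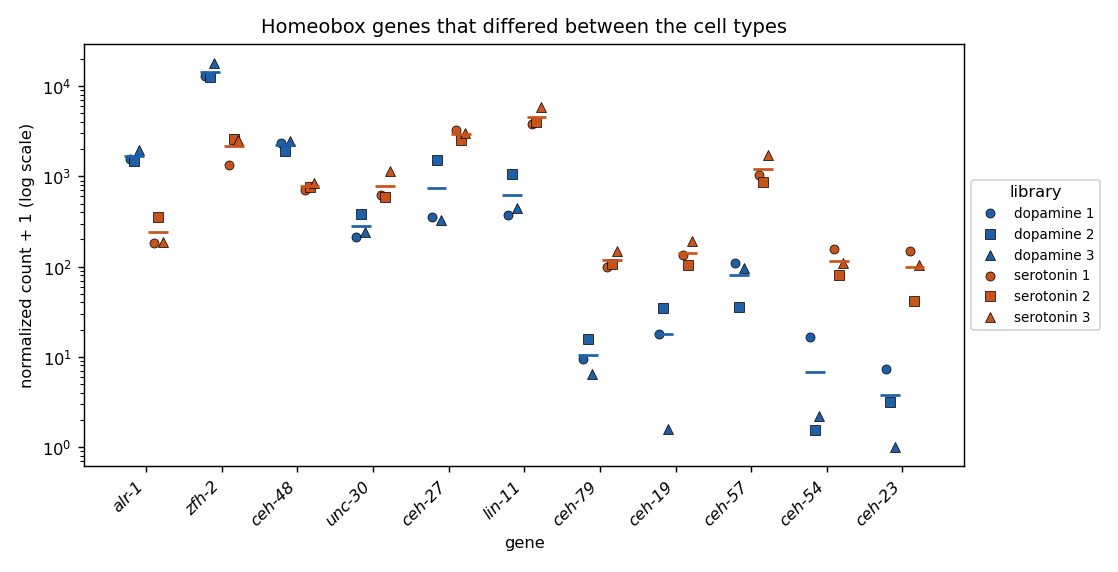
Normalized counts plus 1 on a log scale for the 11 homeobox genes that passed the test, with each library as a point and each group's mean as a bar. For all 11 genes the 3 dopamine libraries (blue) and 3 serotonin libraries (orange) do not overlap. Dopamine 2 lies nearest to the serotonin libraries for ceh-27 and lin-11, at 1528 and 1056 normalized counts. It does so too for zfh-2, alr-1, ceh-48, unc-30, ceh-19 and ceh-79, and dopamine 1 does for ceh-57, ceh-23 and ceh-54.

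In the other direction, the LIM homeobox gene lin-11 (WBGene00003000, WBcel235 chromosome I, 10248288 to 10255327) was the homeobox gene with the highest length-scaled level in serotonin neurons, at 133 ± 35.3 FPKM. The gene is known for its part in vulval development and in the differentiation of interneurons and chemosensory neurons. Its normalized counts were 373, 1056 and 449 in dopamine and 3774, 3965 and 5950.4 in serotonin libraries. Dopamine 2 was the highest dopamine library but remained far below every serotonin library. The gene was 7.94-fold higher in serotonin neurons (log2 -2.99 with SE 0.37, limma adjusted p = 3.56e-04). The pharyngeal muscle markers were also higher in serotonin libraries, the direction by which these 8 genes were picked, so sharing it is no separate observation. The part of those markers in these results was not tested.

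The NK-2 class gene ceh-27 (WBGene00000449, WBcel235 chromosome V, 11661549 to 11665102) followed at 131 ± 16.4 FPKM in serotonin and 32.5 ± 30.1 FPKM in dopamine neurons. It measured 3282, 2557 and 3064 normalized counts in serotonin libraries, against 356, 1528 and 328 in dopamine libraries. Dopamine 2 held several times the level of the other dopamine libraries. With all libraries the gene was 5.23-fold higher in serotonin neurons (log2 -2.39 with SE 0.49, limma adjusted p = 0.00879), and without dopamine 2 the log2 fold change was -3.10. The call was lost without dopamine 3 (limma adjusted p = 0.0501), by edgeR (0.0597) and without both libraries rich in ribosomal RNA (0.0937), with a range over the alternatives of 7.15e-05 to 0.0937.

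The gene ceh-57 (WBGene00007416, WBcel235 chromosome II, 10363584 to 10367296) measured 1026, 875 and 1721 normalized counts in serotonin libraries and 108, 34.9 and 94.7 in dopamine libraries. Each serotonin library lay far above the dopamine range. It was 16-fold higher in serotonin neurons (log2 -4.0 with SE 0.45, limma adjusted p = 1.72e-04) and ranked 3 there among the homeobox genes by FPKM. Its direct neighbour ceh-58 lies 444 bases away on the same strand, and did not pass. That gene stood at 726, 1519 and 951 normalized counts in dopamine and 384, 1476 and 422 in serotonin libraries. The groups overlapped for ceh-58, and library 2 was the highest of both (log2 fold change 0.71, 95% interval -0.33 to 1.75, limma adjusted p = 0.425).

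The Pitx-type gene unc-30 (WBGene00006766, WBcel235 chromosome IV, 13118977 to 13124406) specifies the D-type GABA motor neurons, where it switches on the GABA synthesis gene unc-25 and the vesicular GABA transporter gene unc-47. It measured 212, 380.4 and 243 normalized counts in dopamine and 620.3, 584 and 1136 in serotonin libraries. The groups did not overlap, with serotonin 3 the highest. The gene was 2.75-fold higher in serotonin neurons (log2 -1.46 with SE 0.36, limma adjusted p = 0.0236). The call was lost without dopamine 1 (limma adjusted p = 0.0691), dopamine 3 (0.0865), serotonin 3 (0.0921) or both libraries rich in ribosomal RNA (log2 fold change -0.98, limma adjusted p = 0.153), with a range over the alternatives of 0.00239 to 0.153. Of its known targets, unc-25 stood at 197 ± 62.8 normalized counts in dopamine and 71.1 ± 24.4 in serotonin libraries. It missed the threshold (log2 1.46, limma adjusted p = 0.0687) and passed under the replicate block (0.0232, with 0.0206 to 0.373 over the alternatives). The unc-47 gene stood at 137 ± 50.4 and 65.5 ± 21.2 and did not pass.

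The remaining 4 genes were higher in serotonin neurons from a level close to 0 in dopamine neurons. The gene ceh-23 (WBcel235 chromosome III, 7839592 to 7841491) acts in the AIY interneurons downstream of other homeobox genes. It measured 6.25, 2.18 and 0 normalized counts in dopamine and 149, 40.5 and 103 in serotonin libraries. The paired-like gene ceh-54 (chromosome X, 6191605 to 6194241) measured 15.6, 0.54 and 1.21 in dopamine and 154, 80.5 and 109 in serotonin libraries. No dopamine library of either gene came near the serotonin range. The BarH-type gene ceh-19 (chromosome IV, 7953500 to 7955949), which is needed for the MC motor neurons of the pharynx, measured 16.7, 33.8 and 0.60 in dopamine and 132, 103 and 189 in serotonin libraries. The gene ceh-79 (chromosome V, 13301833 to 13304785) measured 8.34, 14.7 and 5.43 in dopamine and 98.3, 104.5 and 147 in serotonin libraries. For both genes the serotonin libraries were close to each other, and for ceh-19 the dopamine libraries were far apart. About 5.3% of the exonic sequence of ceh-19 is shared with a gene on the opposite strand, so a part of its reads may belong to that gene.

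The log2 fold changes of these genes were -4.93 for ceh-23 (limma adjusted p = 0.0079), -4.86 for ceh-54 (0.00753), -3.80 for ceh-19 (0.0328) and -3.56 for ceh-79 (0.00448). Because the dopamine values are so low, the sizes depend on the value added before taking logs. With 8 added they were -3.17, -3.28, -2.81 and -2.85, and on log2(FPKM + 1), where these low genes change least, -2.10, -2.66, -2.23 and -1.65. The gene ceh-23 passed the filter on low values through its serotonin libraries alone, so its direction and its lack of overlap were fixed in advance. The genes ceh-54, ceh-19 and ceh-79 could not have met the filter on their dopamine libraries alone either. Their entry into the test depended on the serotonin libraries, where they are high, so their direction is not a free observation. The ceh-23 call was lost without serotonin 1 (limma adjusted p = 0.0634) or serotonin 3 (0.0583, range over the alternatives 2.21e-06 to 0.0634). For ceh-19 the call was lost without serotonin 1 (0.072), serotonin 2 (0.0756) or serotonin 3 (0.125), by edgeR (0.103) and without both libraries rich in ribosomal RNA (0.12), with a range of 0.00705 to 0.125. Without dopamine 3 the log2 fold change of ceh-19 was -2.48, and without dopamine 2 it was -4.70. For ceh-54 it was -5.92 without dopamine 1 and -4.21 without dopamine 2, and for ceh-23 -5.60 without dopamine 1 and -4.17 without dopamine 3. The ceh-79 call was lost without both libraries rich in ribosomal RNA (limma adjusted p = 0.0552, range 4.65e-07 to 0.0552).

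Across the 18 alternatives, zfh-2, alr-1, lin-11, ceh-57 and ceh-54 passed in each, and the other 6 of the 11 lost the call in at least 1. Dopamine 1 and serotonin 3, the libraries rich in ribosomal RNA, differed from each other in the same direction as the other 4 libraries did for 11 of 11 genes. Among those other 4 libraries 7 of the 11 passed. With the replicate number as a block, 4 homeobox genes passed toward dopamine and 10 toward serotonin neurons, where 6.78% and 11.7% of all tested genes passed. The 3 genes gained were ceh-13, ceh-37 and ceh-62. By edgeR on whole reads 3 and 6 homeobox genes passed, where 2.64% and 4.75% of all tested genes did. By DESeq2 they were 3 and 9, where 4.52% and 8.44% did, and with quantile normalization 3 and 9, where 4.67% and 6.48% did.

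**Figure D2:**
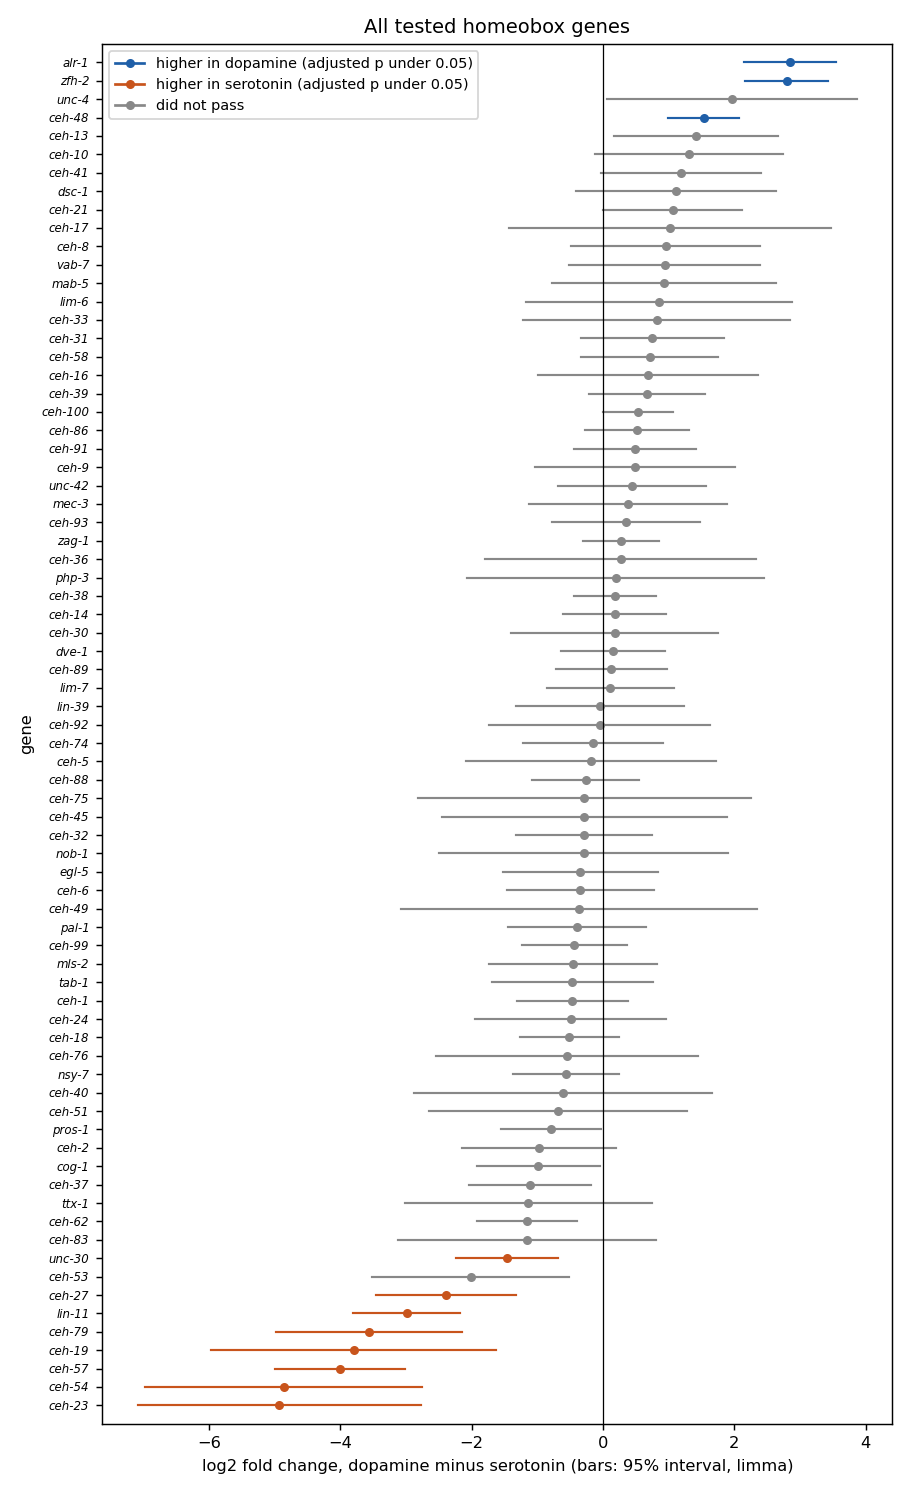
Log2 fold change (dopamine minus serotonin) of all 74 tested homeobox genes with 95% intervals from limma, ordered by size and coloured by call. Most points lie between -1 and 1 (51 of 74), and the 8 genes called toward serotonin reach down to -4.93 whereas the 3 called toward dopamine reach up to 2.85.

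Most homeobox genes did not differ beyond the spread between libraries. Of the 63 tested genes that did not pass, 5 had a 95% interval that stayed within a log2 fold change of 1 in either direction, namely ceh-14, ceh-38, ceh-89, dve-1 and zag-1. For the other 58 the interval reached further, so that the interval does not exclude a difference above 2-fold. The zinc finger homeobox gene zag-1, a ZEB-type factor of axon guidance and neuronal differentiation, was at 981, 1375 and 954 normalized counts in dopamine and 995, 789 and 923 in serotonin libraries. These ranges overlapped (log2 fold change 0.28, 95% interval -0.30 to 0.86). The broadly expressed Onecut gene ceh-38 measured 1601, 2075 and 2223 in dopamine and 1196, 2193 and 1895 in serotonin libraries, again with overlap (log2 fold change 0.19, 95% interval -0.43 to 0.81).

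By length-scaled level, 16 homeobox genes averaged at least 10 FPKM in dopamine neurons, 20 did in serotonin neurons and 14 in both. The order in dopamine neurons was zfh-2, ceh-48 (54.4 ± 7.52 FPKM), alr-1 (41.4 ± 6.93), ceh-58 (40.7 ± 15.6), ceh-27, ceh-38 (32.1 ± 5.31), unc-42 (27.1 ± 15.2), zag-1 (22.7 ± 4.85), ceh-89 (22.4 ± 4.39) and ceh-100 (22.3 ± 2.29). From alr-1 on, neighbours in this order differed by less than the larger of their SDs. In serotonin neurons lin-11 and ceh-27 led, followed by ceh-57 (43.7 ± 16.3 FPKM), ceh-58 (29.1 ± 23.7), ceh-38 (28.8 ± 8.36), unc-30 (28.5 ± 11.3), ceh-62 (22.5 ± 9.79), ceh-89 (21.7 ± 9.92), unc-42 (20.4 ± 14.3) and ceh-48 (18.7 ± 1.84). Here lin-11 and ceh-27 differed by less than the larger of their SDs, and so did each pair of neighbours from ceh-57 on. The 3 highest genes held 30.3% of the summed homeobox FPKM in dopamine and 37.4% in serotonin neurons. At the other end 16 genes averaged under 1 FPKM in both.

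**Figure D3:**
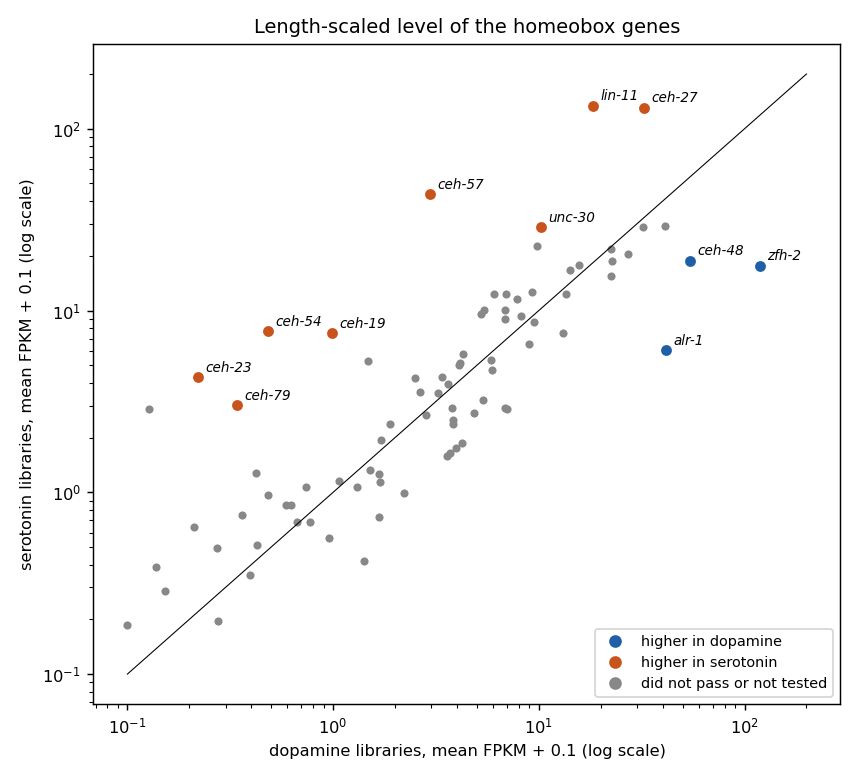
Mean FPKM plus 0.1 of all 84 homeobox genes in dopamine (x) and serotonin (y) libraries, both on log scales, with the line of equal level. Genes called higher in dopamine (blue) include zfh-2 at 118 against 17.5 FPKM, and those called higher in serotonin (orange) include lin-11 at 133 against 18.3 FPKM.

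The cut and Onecut genes found by symbol were all tested, and of these 7 only ceh-48 passed (median log2 fold change 0.67 beside -0.07 over all tested genes). Genes of this class whose symbol was not held are not covered. Their members ceh-41, ceh-21 and ceh-39 lie side by side on chromosome X, with gaps of 103 and 1137 bases. The ceh-41 gene measured 77.1, 77.9 and 164 normalized counts in dopamine and 26.3, 50 and 60.2 in serotonin libraries. Its groups did not overlap, yet it missed the threshold (log2 1.19, 95% interval -0.02 to 2.41, limma adjusted p = 0.234). The ceh-21 gene (log2 fold change 1.06) and ceh-39 (0.67) overlapped between groups, and ceh-49 (-0.36) did not pass. The SATB-like gene dve-1 stood at 304 ± 81.2 and 277 ± 94.2 normalized counts.

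Of 14 paired-like genes, alr-1 was higher in dopamine and unc-30 and ceh-54 in serotonin neurons (median log2 fold change 0.36). The gene ceh-53 stood at 15.6, 10.4 and 41.6 normalized counts in dopamine and 119, 83.5 and 51.6 in serotonin libraries. It did not overlap between groups but missed the threshold (log2 -2.02, limma adjusted p = 0.0964). The unc-42 gene, which specifies sensory neurons and command interneurons, measured 258, 901 and 556 in dopamine and 234, 778 and 282 in serotonin libraries, with overlap and with library 2 highest in both. The unc-4 gene, which specifies motor neuron inputs, was low throughout at 22.9, 25.1 and 28.4 in dopamine and 3.14, 8 and 7.37 in serotonin libraries. It passed the filter through its dopamine libraries alone and missed the threshold (log2 1.96, limma adjusted p = 0.211). The Otx-type genes ttx-1 of the AFD thermosensory neurons, ceh-36 of the AWC and ASE neurons and ceh-37 of the AWB neurons did not pass, with log2 fold changes of -1.14, 0.27 and -1.11. With the replicate block ceh-37 passed toward serotonin neurons (limma adjusted p = 0.0372, with 0.0164 to 0.506 over the alternatives). Its neighbour ceh-36 lies 10805 bases away and averaged 30 ± 19.6 and 34.5 ± 38.3 normalized counts. The Vsx-type gene ceh-10, the Phox2-type gene ceh-17, the Rax-type gene ceh-8, the goosecoid-type gene ceh-45 and dsc-1 lay between -0.28 and 1.31 and did not pass.

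Among the LIM genes of the rule, which does not hold every homeobox gene, lin-11 alone of 5 passed (median log2 fold change 0.18). The Lhx3-type gene ceh-14 stood at 222 ± 14.9 and 202 ± 62.2 normalized counts, lim-7 at 407 ± 221 and 372 ± 176 and lim-6, an ASE and GABA neuron factor, at 36.5 ± 29.4 and 14.7 ± 6.44. The touch receptor gene mec-3 was low in both, at 36.5, 24.5 and 75.4 in dopamine and 36.6, 47 and 17.2 in serotonin libraries. These values overlapped (log2 fold change 0.39, 95% interval -1.12 to 1.89). The POU genes ceh-6 and ceh-18, the sine oculis-type genes ceh-32 and ceh-33, the Prospero gene pros-1 and the PBC gene ceh-40 did not pass, with log2 fold changes from -0.79 to 0.82.

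Of 21 NK, Bar, engrailed and related genes 17 were tested, and ceh-23, ceh-19 and ceh-27 were higher in serotonin neurons (median log2 fold change -0.47). The ceh-62 gene measured 223, 308 and 325 normalized counts in dopamine and 512, 483 and 998 in serotonin libraries. The groups did not overlap, but the gene missed the threshold (log2 -1.15 with SE 0.35, limma adjusted p = 0.0625). It passed with the replicate block (0.00908) and by DESeq2 (0.0149), with a range over the alternatives of 0.00238 to 0.28. The Emx-type gene ceh-2, known in pharyngeal neurons, stood at 98.4 ± 55.7 and 184 ± 80.7 and the Nkx6-type gene cog-1 at 138 ± 75.7 and 252 ± 43.5, and neither passed. The engrailed gene ceh-16, the Eve-type gene vab-7, the BarH-type neighbours ceh-30 and ceh-31, mls-2, tab-1, ceh-1, ceh-5, ceh-9, ceh-24 and ceh-51 lay between -0.68 and 0.94.

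The Hox genes set position along the body axis and also specify neurons by region. Those of the rule are lin-39, ceh-13, mab-5, egl-5, php-3 and nob-1, in this order along chromosome III, with ceh-23 between egl-5 and php-3. None averaged more than 6.89 FPKM in either cell type. The labial-type gene ceh-13 measured 110.5, 258 and 135 normalized counts in dopamine and 53.5, 119 and 30.7 in serotonin libraries. Serotonin 2 lay above dopamine 1 (log2 1.41 with SE 0.57, limma adjusted p = 0.164). With the replicate block ceh-13 passed toward dopamine neurons (limma adjusted p = 0.0401, with 0.0401 to 0.575 over the alternatives). The Deformed- or Sex combs reduced-type gene lin-39 measured 123, 159 and 88.1 in dopamine and 139, 273 and 49.1 in serotonin libraries. The mid-body gene mab-5 measured 63.6, 156 and 21.1 in dopamine and 50.7, 36 and 16 in serotonin libraries. The posterior gene egl-5, which acts in the HSN serotonin neurons, measured 139, 146 and 39.2 in dopamine and 120.3, 130.5 and 104.35 in serotonin libraries. For each of these the groups overlapped, and none passed. The most posterior genes php-3 and nob-1, 236 bases apart, averaged 42.8 ± 44.2 and 24.9 ± 19.5 in dopamine and 28 ± 18.4 and 25.5 ± 16.9 in serotonin libraries. The caudal-type gene pal-1 did not pass (log2 fold change -0.39).

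**Figure D4:**
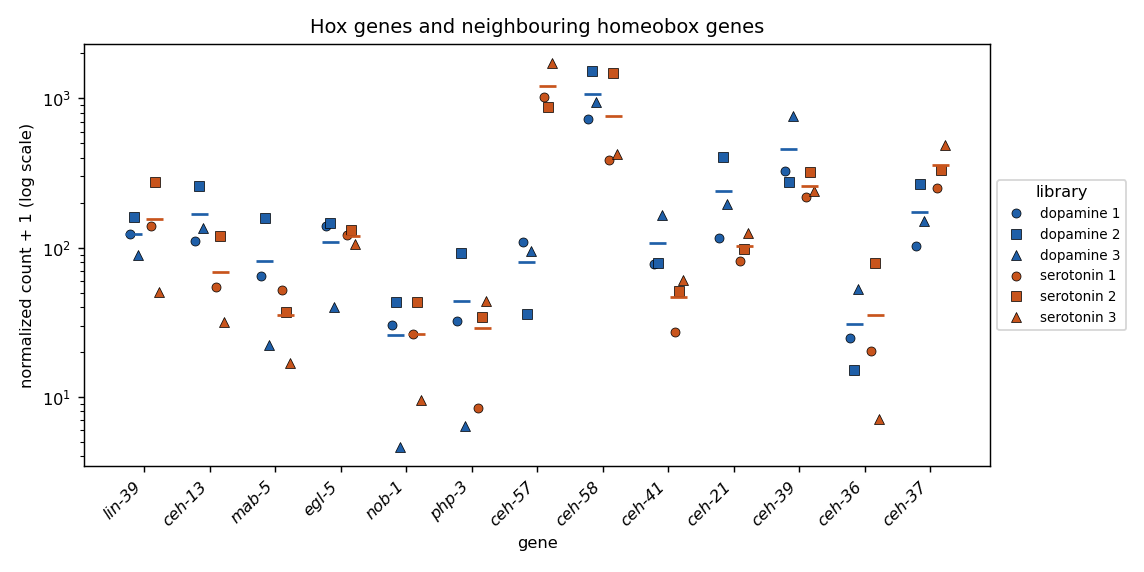
Normalized counts plus 1 on a log scale for the 6 Hox genes, for the neighbours ceh-57 and ceh-58, for the neighbours ceh-41, ceh-21 and ceh-39, and for the neighbours ceh-36 and ceh-37, with libraries as points and group means as bars. The groups overlap for all 6 Hox genes and for ceh-58, while those of ceh-57 are separated, at 34.9 to 108 in dopamine and 875 to 1721 in serotonin libraries.

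A further 21 genes are not placed in one of these classes here, and of the 16 tested, ceh-57 and ceh-79 were higher in serotonin neurons (median log2 fold change -0.20). The highest of the others by normalized count was ceh-100, at 1884, 2135 and 2316 normalized counts in dopamine and 1217, 1532 and 1633 in serotonin libraries. Its groups did not overlap, yet it missed the threshold (log2 0.54, limma adjusted p = 0.218). The genes ceh-86, ceh-88, ceh-89, ceh-91, ceh-99 and nsy-7, which acts in left-right asymmetry of the AWC neurons, had log2 fold changes from -0.56 to 0.52. About 32.5% of the exonic sequence of ceh-88 is shared with another gene on the same strand, so its level is uncertain. The remaining tested genes ceh-74, ceh-75, ceh-76, ceh-83, ceh-92 and ceh-93 lay between -1.16 and 0.35. Counting genes whose groups did not overlap, 6 of 74 lay above in dopamine (8.11%, beside 12.3% of all tested genes) and 10 lay above in serotonin neurons (13.5%, beside 15.1%). These counts include unc-4 in dopamine and ceh-23 in serotonin neurons. Both passed the filter through the libraries of that cell type alone, which fixed their lack of overlap in advance. The serotonin count also includes ceh-54, ceh-19 and ceh-79, which met the filter only with their serotonin libraries.

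The homeobox genes also varied between libraries of a cell type. Across those tested, deviations from the group mean correlated between same-numbered libraries of the cell types at 0.481, 0.343 and 0.177 for libraries 1, 2 and 3. Of the 74 tested genes 23 (31.1%) had their highest value in library 2 of both cell types, where 14.2% of all tested genes did. The shares were 9.46% for library 1 and 13.5% for library 3, where 16.2% and 19% of all tested genes had this pattern. Among the 23 were ttx-1, at 189 normalized counts in dopamine 2 against 15.6 and 41.6 in dopamine 1 and 3, and at 265 in serotonin 2 against 46 and 113 in serotonin 1 and 3. The sine oculis-type gene ceh-32, which acts in head development, was at 1138 in dopamine 2 against 300.1 and 515 and at 1178 in serotonin 2 against 472 and 575. The LIM gene lim-7, the Hox genes lin-39, ceh-13, egl-5 and nob-1, unc-42 and ceh-58 also had library 2 highest in both cell types. The cause was not tested.

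**Figure D5:**
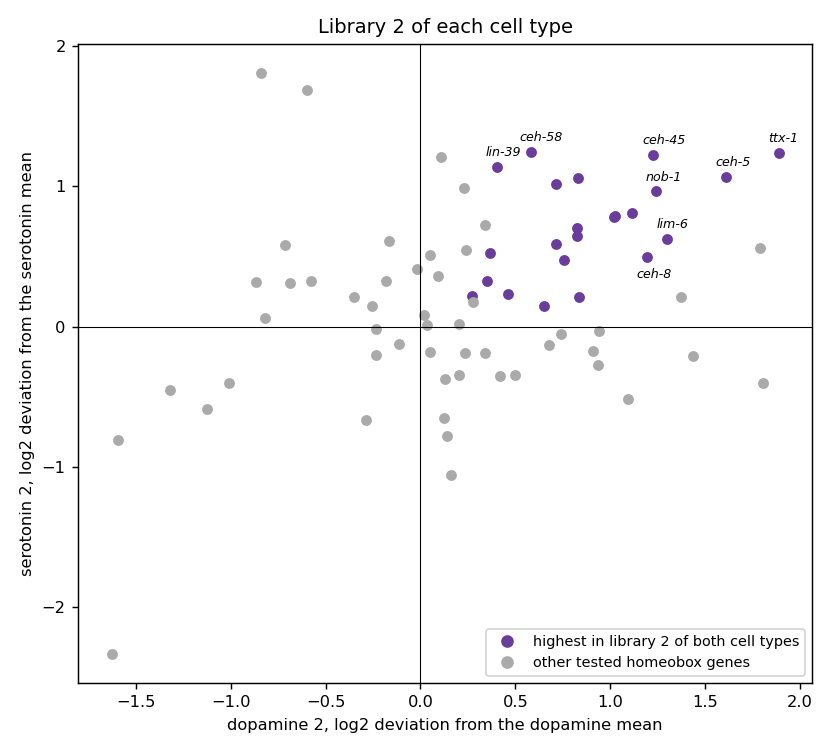
Deviation of library 2 from its group mean, on the log2(normalized count + 1) scale, for the 74 tested homeobox genes in dopamine (x) and serotonin (y) neurons. The 23 genes that were highest in library 2 of both cell types (purple) lie in the upper right, with ttx-1 at 1.89 and 1.24.

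Genes known to be regulated by these factors gave counts in both directions. Of 34 tested, 3 were higher in dopamine and 3 in serotonin neurons (8.82% in each direction, where 3.16% and 6.36% of all tested genes passed), with a median log2 fold change of 0.09. With the replicate block they were 5 and 6, the genes gained being unc-25 and mec-17 toward dopamine and gcy-7, ser-2 and srsx-3 toward serotonin neurons. The genes higher in serotonin neurons were odr-3, tax-2 and tax-4, which act in chemosensory signal transduction. The G protein gene odr-3 stood at 2016 ± 131 normalized counts in serotonin and 269 ± 69.4 in dopamine libraries (log2 fold change -2.93, limma adjusted p = 5.48e-05). The cyclic nucleotide channel subunit genes tax-2 (-2.72) and tax-4 (-2.68) were also higher there, and these 3 calls held in all 18 alternatives. Other chemosensory genes of the list did not pass, among them the guanylyl cyclase genes odr-1 (log2 fold change -1.17), gcy-5 (0.07), gcy-6 (0.29), gcy-8 (-0.04), gcy-18 (0.29) and gcy-23 (0.43). The cyclase gene gcy-7 had a larger change (-3.16, limma adjusted p = 0.208), with overlap between groups. It passed in 3 of the 18 alternatives (0.00412 to 0.588 over all of them). The genes higher in dopamine neurons were the tubulin genes mec-7 (1.53, limma adjusted p = 0.0173) and mec-12 (1.21, 0.0197), known as mec-3 targets, and the acetylcholine receptor gene acr-5 (2.06, 0.0355), which unc-4 holds off in motor neurons. The mec-7 and mec-12 calls were lost without dopamine 2, dopamine 3 or serotonin 1 and with pan-neuronal scaling, and acr-5 lost its call in 8 of the 18 alternatives, including without dopamine 1, dopamine 3, serotonin 2 or serotonin 3. The adjusted p ranged up to 0.248, 0.451 and 0.161 for mec-7, mec-12 and acr-5. Of the 5 touch receptor markers mec-7 passed, and mec-17 did so with the replicate block (limma adjusted p = 0.0249, 0.0748 without it, and 0.0239 to 0.694 over the alternatives). The markers mec-4 (log2 fold change 0.74) and mec-18 (1.43) did not pass. Nor did mec-10, which went the other way (-0.41, at 49.8 ± 21.3 normalized counts in dopamine and 62.2 ± 3.03 in serotonin libraries). The list summed to 896.3 to 1985.9 in dopamine and 540.9 to 745.9 in serotonin libraries.

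Outside the rule, 16 other homeobox genes were tested from a fixed list (median log2 fold change -0.20). Of these 3 (18.75%) were higher in dopamine and 2 (12.5%) in serotonin neurons, where 3.16% and 6.36% of all tested genes passed. Those higher in dopamine neurons were ceh-43, unc-62 and vab-3, and those higher in serotonin neurons were ceh-22 and ttx-3. The ttx-3 call was close to the threshold (limma adjusted p = 0.04745, beside 2.17e-04 for ceh-22). Its serotonin libraries ranged widely, at 182, 290 and 694 normalized counts, with serotonin 3 the highest. With the replicate block the counts were 4 and 4, where 6.78% and 11.7% of all tested genes passed. The genes gained were ceh-20 toward dopamine and ceh-34 and hmbx-1 toward serotonin neurons. The gene ceh-43 is also among the 6 dopamine markers counted above, so its call is not a separate observation.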

How the data were processed

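RNA-seq of 3 dopamine and 3 serotonin libraries was used. Per the labels, polyadenylated RNA was purified with PicoPure and amplified from very little input with an Ovation kit (Nugen), which can add noise to low genes. STAR, HTSeq and DESeq2 are named, with no roles or versions, in the submitters' processing notes. Genome build and strandedness were not given in the sources used here. Tables the authors deposited hold normalized counts, a signal in which reads are divided by a library's size factor, and FPKM, which the authors scaled by gene length. Division by the value of 1 read (0.393 to 1.23) gave whole reads for 99.996% to 100% of values above 0 within a tolerance of 0.02. On these reads edgeR called 416 genes toward dopamine and 748 toward serotonin. Genes were matched by identifier to WBcel235 (Ensembl release 115 annotation), which covered 46407 of 47063 genes, and coordinates are from there.

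Genes with at least 10 normalized counts in at least 3 libraries were tested by limma 3.58.1 (trend and robust options, R 4.3.3) on log2(normalized count + 1), with Benjamini-Hochberg adjustment over all 15750 and a threshold of 0.05. FPKM was used for levels between genes and, as log2(FPKM + 1), as an alternative. The limma script was tested on simulated data. Other alternatives were added values of 0.5 and 8, no filter and a filter of 50, quantile, TMM and pan-neuronal scaling, edgeR 4.0.16, DESeq2 1.42.0, a replicate block, and leaving out libraries. Deviations from group means correlated at 0.433, 0.173 and 0.28 between libraries of the same number and at -0.296 to 0.013 between the others, so block results are given beside the counts they change. Between libraries of a group chi-square per degree of freedom was 131 to 536, so none is a second sequencing of another library. Repeat amplifications of the same RNA cannot be told from separate samples in this way.

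The members, lists and alternatives were chosen with earlier results of these data known. Genes named by rule were those past the threshold, the 10 highest by FPKM in each cell type, the Hox genes, and genes without overlap between groups at a mean of at least 50. Other members are named to account for all, with their values seen. Of the ceh- genes, those whose symbol the gene name table does not hold were not analysed here.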

Additional observations from a re-analysis of the deposited data

How the results depend on the processing

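The count of homeobox genes higher in dopamine neurons was 3 in each library left out and 2 to 4 over all alternatives. That of genes higher in serotonin neurons (8) was 16 with pan-neuronal scaling, 4 without dopamine 1 and serotonin 3 together, and 5 to 8 with 1 library left out, 5 being without serotonin 3. Over all tested genes the 498 higher in dopamine and 1002 higher in serotonin neurons became 174 and 3300 with pan-neuronal scaling. With the replicate block they were 1068 and 1842, and without dopamine 1 and serotonin 3 together 294 and 753. They were 224 to 455 and 581 to 1289 with 1 library left out. The lowest, 224 and 581, were without dopamine 3 and serotonin 3, and without serotonin 2 they were 316 and 637. The regulated genes (3 and 3) became 5 toward dopamine with quantile normalization and DESeq2, 0 and 8 with pan-neuronal scaling, 5 and 6 with the replicate block, and 0 to 2 and 3 to 6 with 1 library left out. The lowest, 0, was without dopamine 3, and 6 was without dopamine 1. The homeobox median of -0.10 was 0.21 with quantile normalization, which moved that of all genes to 0.13, -1.0 with pan-neuronal scaling, and -0.17 to 0.18 with 1 library left out. The cause was not tested.

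Over the 26 genes named by rule, counted per gene and alternative, 16 calls were lost, 7 were gained and none reversed. The replicate block changed the calls given beside ceh-13, ceh-37 and ceh-62 and no other call among the 74 tested genes of the rule. Few reads in dopamine libraries limit ceh-23, ceh-54, ceh-19 and ceh-79.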

Other observations

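Of the 84 homeobox genes, 10 did not reach the filter and stand in no comparison. The gene ceh-84 measured 1.04, 0 and 0 normalized counts in dopamine libraries and 35.4, 6.0 and 72.4 in serotonin libraries. With no filter on low values it was called higher in serotonin neurons (log2 fold change -4.39, limma adjusted p = 0.0297). The gene ceh-90 measured 5.21, 3.81 and 3.62 in dopamine and 5.90, 28 and 12.3 in serotonin libraries. The other 8, among them the HB9-type gene ceh-12, the M4 neuron gene ceh-28, the PBC gene ceh-60 and the neighbours ceh-81 and ceh-82, had no value above 17 in any library. None of the 84 genes was listed at 0 in every library, and 56 reached 10 normalized counts in all 6.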
